A study of Mus musculus with 15 samples.

Results

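The genes described here make, break down or sense prostanoids, the lipid mediators formed from arachidonic acid. The 10 members were chosen by symbol for their place in the pathway: Ptgs1, Ptgs2, Ptges, Ptges2, Ptges3, Hpgds, Tbxas1, Hpgd, Ptger2 and Ptger4. All 10 were found among the 25814 genes of the count tables, and all 10 passed the filter on low counts that left 11804 genes for testing. RNA was sequenced from bone marrow-derived macrophages (BMDMs) of adult wild-type C57BL/6 mice, whose marrow was cultured with L929 cell supernatant, which supplies the macrophage growth factor M-CSF. Of the 15 libraries, 5 came from untreated control BMDMs, 5 from BMDMs given poly(I:C) at 10 µg/ml for 6 h, and 5 from BMDMs given CL075 at 4 µM for 6 h. Poly(I:C) is a synthetic double-stranded RNA that activates TLR3, and CL075 is a small-molecule agonist of TLR7. The comparisons ask how each ligand changes the transcriptome of BMDMs and whether both act alike. No source used here says which libraries came from separate animals, so p-values measure the spread between these libraries, which may be technical.

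Prostanoid synthesis starts when phospholipases free arachidonic acid from membranes. The cyclooxygenases, encoded by Ptgs1 and Ptgs2, turn it into the unstable endoperoxide PGH2, and terminal synthases then convert PGH2 into prostaglandin E2, prostaglandin D2, thromboxane or other products. Prostaglandin E2 is the best known of these in activated macrophages, where it acts back on the cells through receptors that raise cyclic AMP, until 15-hydroxyprostaglandin dehydrogenase inactivates it.

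The promoters of 4 members are shown because these members moved furthest, Ptgs2 and Ptges upward and Ptgs1 and Hpgd downward. The sequences are RefSeq's for the GRCm38.p6 assembly and run from 250 bases before to 30 bases after the annotated start, 5′ to 3′ on the strand of the gene. Capitals mark matches to 7 motifs searched on both strands. The core of a cyclic AMP response element (CRE), which binds CREB, was searched as CGTCA. The E-box, bound by helix-loop-helix factors such as USF, was searched as CACGTG. The motif of the C/EBP family was searched as TTNNGNAA and that of AP-1, the dimer of Fos and Jun proteins, as TGANTCA. The GAS motif of STAT proteins was searched as TTCNNNGAA, the TATA box as TATAAA, and NF-kB by its consensus. Where matches overlap, their joined bases are in capitals. The motifs were chosen after the sequences had been read.
Ptgs2 promoter: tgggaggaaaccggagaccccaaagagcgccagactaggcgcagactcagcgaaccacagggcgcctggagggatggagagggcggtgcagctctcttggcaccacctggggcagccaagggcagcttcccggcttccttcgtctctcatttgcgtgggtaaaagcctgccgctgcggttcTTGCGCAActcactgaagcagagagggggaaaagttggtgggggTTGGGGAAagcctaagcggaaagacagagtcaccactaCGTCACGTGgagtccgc
Ptgs1 promoter: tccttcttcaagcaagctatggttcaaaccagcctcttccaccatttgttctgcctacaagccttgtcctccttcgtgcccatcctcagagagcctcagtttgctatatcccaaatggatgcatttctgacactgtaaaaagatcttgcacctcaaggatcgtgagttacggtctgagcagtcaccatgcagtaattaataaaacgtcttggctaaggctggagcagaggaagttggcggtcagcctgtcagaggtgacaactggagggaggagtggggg
Ptges promoter: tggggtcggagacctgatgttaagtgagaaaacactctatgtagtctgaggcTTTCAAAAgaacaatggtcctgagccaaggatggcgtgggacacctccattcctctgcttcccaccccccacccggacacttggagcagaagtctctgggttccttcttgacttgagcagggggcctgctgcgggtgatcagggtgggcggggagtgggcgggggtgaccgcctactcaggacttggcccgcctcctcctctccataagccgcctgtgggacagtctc
Hpgd promoter: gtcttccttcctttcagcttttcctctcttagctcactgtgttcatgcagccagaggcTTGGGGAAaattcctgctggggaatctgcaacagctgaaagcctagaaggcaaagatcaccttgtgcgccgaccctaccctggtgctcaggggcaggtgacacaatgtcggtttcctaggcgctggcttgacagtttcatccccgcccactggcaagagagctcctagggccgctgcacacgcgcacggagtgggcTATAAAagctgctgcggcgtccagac

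The Ptgs2 window (chr1:150099781-150100060, plus strand) held a CRE core at positions 14 to 18 after the start, overlapping an E-box at positions 17 to 22. It also held C/EBP-type matches at −69 to −62 and at −25 to −18, the first of them reading the same on both strands. The Ptgs1 window (chr2:36230176-36230455, plus strand) held none of the 7 motifs. The Ptges window (chr2:30903268-30903547, minus strand) held a single C/EBP-type match at −198 to −191. RefSeq places this start 26566 bases inside the gene span that the count tables use. The Hpgd window (chr8:56294302-56294581, plus strand) held a C/EBP-type match at −192 to −185 and TATAAA at positions 5 to 10. Its RefSeq start lies 33 bases before the gene span that the count tables use, so this TATAAA lies before that span. Among 32541 distinct promoter windows of this length, the CRE core occurred in 20.0%, the E-box in 6.81%, the C/EBP-type motif in 39.2% and TATAAA in 13.1%. The remaining motifs occurred in 7.45% (AP-1), 7.86% (GAS) and 4.24% (NF-kB consensus) of the windows, and these matches describe letters and not bound sites. Matches to the C/EBP-type motif are thus common among all promoters.

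Library depth ranged from 21816291 to 32487565 counts over genes. Levels are given as CPM, counts scaled to library size, on edgeR's TMM scale, which assumes that most genes do not change. Levels of different members are compared only as TPM, which takes gene length into account. The scale matters in these data. The TMM factors were 1.33 to 1.38 in control, 0.683 to 0.721 in poly(I:C) and 1.03 to 1.09 in CL075 libraries, so values per library total would put every poly(I:C) level lower against control. A gene was called changed at an adjusted p under 0.05 in edgeR's quasi-likelihood test (false discovery rate over all 11804 genes) if it also moved more than 1.5-fold and averaged over 0.5 TPM in either group compared. The 9 macrophage markers analysed here summed to 41060 to 52470 CPM, mostly Lyz2 and Ctsb. The lowest of them, Mertk, averaged 103.2 CPM in control, 231.8 with poly(I:C) and 24.7 with CL075, called higher and lower against control. Each of the 10 markers of mast cells and basophils, cells rich in Hpgds, averaged below 1 CPM in every group. Of the 11 megakaryocyte and platelet markers, cells rich in Tbxas1 and Ptgs1, those above 1 CPM were Pf4 (36.5, 36.5 and 64.6 CPM in control, poly(I:C) and CL075), Ppbp (3.42, 1.87 and 3.72 CPM) and, in control alone, Treml1 (1.17 CPM). The defining genes Itga2b and Gp9 stayed below 0.4 CPM in all groups.

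Both ligands reversed the balance of the cyclooxygenases. Ptgs2, the inducible cyclooxygenase-2, rose by 4.91 with poly(I:C) and 6.08 with CL075 on the log2 scale, whereas Ptgs1, the cyclooxygenase-1 present in most resting cells, fell 5.49-fold and 11.5-fold. Ptges, the inducible microsomal prostaglandin E synthase, rose far more with CL075 than with poly(I:C). Hpgd, the dehydrogenase that inactivates prostaglandins, fell with both. The prostaglandin E2 receptor gene Ptger2 fell with poly(I:C) and rose with CL075, and Ptger4 rose with CL075 while its poly(I:C) value was not called.

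Of the 10 members, 2 were called higher (Ptgs2 and Ptges) and 4 lower (Ptgs1, Tbxas1, Hpgd and Ptger2) in poly(I:C) against control, where 25.4% of all tested genes were called higher and 30.5% lower, 55.9% in either direction. By library totals the 4 became 8, with Ptges2, Ptges3, Hpgds and Ptger4 added. That scale called 7664 of the 11804 tested genes lower, against 3597 with TMM. In CL075 against control, 6 members were called higher and 3 lower, beside 17.6% and 21.5% of all tested genes (39.1% in either direction). The 6 were Ptgs2, Ptges, Ptges3, Hpgds, Ptger2 and Ptger4, and the 3 were Ptgs1, Tbxas1 and Hpgd. Of the 6, Hpgds and Ptger2 were not called when scaled by upper quartile, Hprt or library totals. Those scales called 1592, 1314 and 1208 of the 11804 tested genes higher, against 2082 with TMM. Poly(I:C) against CL075 compares the treated groups directly, although the control libraries enter the filter, the scale and the estimate of spread. There 2 members were called higher (Ptgs1 and Hpgd) and 7 lower (all others but Tbxas1), beside 22.7% and 23.7% of all tested genes (46.5% in either direction). The first and second comparisons share their 5 control libraries. The median log2 fold change of the members was −0.23, 0.69 and −0.87 in the 3 comparisons, against −0.083, −0.022 and −0.0093 over all tested genes. The ranges of the libraries did not overlap for 7, 10 and 10 of the 10 members, where this held for 75.9%, 65.2% and 66.2% of all tested genes.

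**Figure D1:**
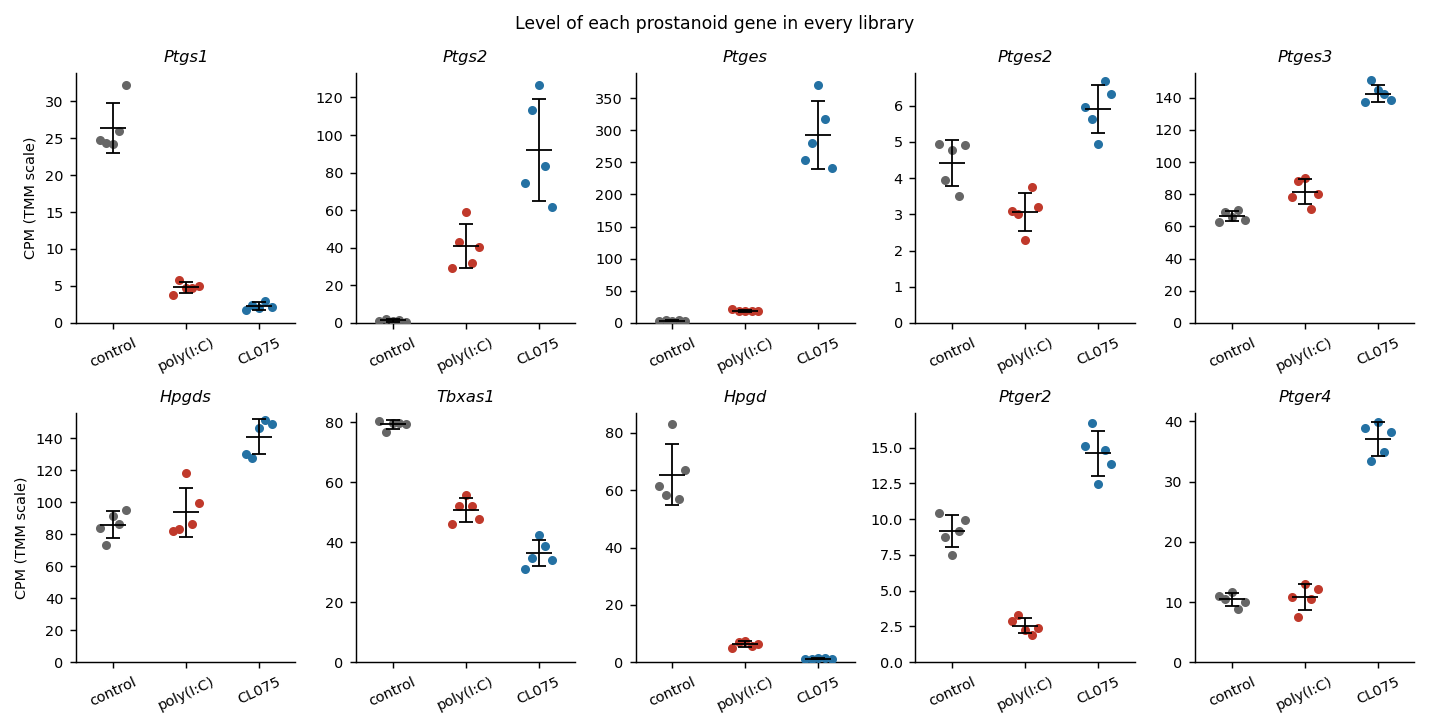
Level of each of the 10 genes in CPM on the TMM scale (vertical axes, from 0) in the 15 libraries, grouped as control, poly(I:C) and CL075; points are libraries, and bars show the mean and SD of 5. Ptgs2 lies between 0.697 and 2.34 CPM in control and between 61.6 and 126.6 CPM in CL075, while Hpgd lies between 56.9 and 83.0 CPM in control and between 1.06 and 1.43 CPM in CL075.

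Ptgs1 measured 24.8, 24.3, 24.2, 26.0 and 32.2 CPM in control replicates 1 to 5. With poly(I:C) it measured 3.75, 5.81, 4.72, 4.71 and 5.02 CPM. With CL075 it measured 1.70, 2.48, 2.01, 3.01 and 2.17 CPM. No library of one group reached into the range of another, and control replicate 5 stood highest. In poly(I:C) libraries it was 5.49-fold lower (log2 fold change −2.46, SE 0.12, edgeR adjusted p = 4.65e-13). In CL075 libraries it was 11.5-fold lower (−3.53, SE 0.13, edgeR adjusted p = 1.82e-14). Poly(I:C) left a higher level than CL075 did, by 1.07 on the log2 scale (SE 0.15, edgeR adjusted p = 3.04e-06), although by library totals this last difference was 0.48 and below 1.5-fold. Of the exon bases of Ptgs1, 3.81% lie opposite an annotated antisense gene, and how strand entered the counting was not known here.

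Ptgs2 was the least abundant member in control, at 0.946, 2.34, 1.22, 1.63 and 0.697 CPM, from 30 to 88 counts a library. The poly(I:C) libraries held 29.2, 43.1, 58.9, 32.1 and 40.7 CPM. The CL075 libraries held 74.3, 113.1, 126.6, 83.5 and 61.6 CPM. The 3 groups were fully separate, though the lowest CL075 library stood only just above the highest poly(I:C) library. Poly(I:C) gave a log2 fold change of 4.91 (SE 0.29, edgeR adjusted p = 1.23e-11), a rise that 278 of the 11804 tested genes exceeded. CL075 gave 6.08 (SE 0.29, edgeR adjusted p = 1.27e-12), exceeded by 35 genes. Poly(I:C) gave 1.17 less on the log2 scale than CL075 (−1.17, SE 0.21, edgeR adjusted p = 5.07e-05). The promoter shown above with the joined CRE core and E-box is that of this gene. Within each treatment, Ptgs2 was highest in libraries that also held haemoglobin transcripts: the 7 erythroid markers summed to 40.0 CPM in poly(I:C) replicate 3 and to 28.6 and 29.3 CPM in CL075 replicates 2 and 3, against at most 0.518 CPM in the other 12 libraries. Without those 3 libraries the log2 fold changes of Ptgs2 were 4.74 and 5.75, both still called by edgeR (adjusted p = 5.64e-12 and 2.58e-12).

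Counted per length, Ptgs2 made up 3.23% ± 1.63 (SD, n = 5) of the summed TPM of both cyclooxygenases in control, 83.7% ± 2.94 in poly(I:C) libraries and 96.0% ± 1.30 in CL075 libraries. The ratio of Ptgs2 to Ptgs1 within a library does not depend on how libraries are scaled. It ran from 0.0135 to 0.0601 in control (median 0.0315), from 4.26 to 7.83 with poly(I:C) (median 4.88) and from 17.4 to 39.3 with CL075 (median 27.3). Cyclooxygenase-1 transcripts thus outnumbered those of cyclooxygenase-2 in all 5 control libraries, and the reverse held in all 10 treated ones. Mean log2 ratios differed by 7.44 between poly(I:C) and control, 9.70 between CL075 and control and −2.25 between poly(I:C) and CL075. Each gave p = 0.00794 in a two-sided exact permutation test over the libraries, the smallest p that 5 against 5 allows, or 0.00866 after adjustment over the 12 tests run on 4 ratios. All 12 tests were added after the data had been seen. Where the ratios of 2 groups do not overlap, p can only take this smallest value, so it adds no support to the separation. Within same-numbered libraries each of the 12 differences gave p = 0.0625 in a two-sided exact sign-flip test, the smallest that 5 numbers allow.

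The prostaglandin E synthases differed from each other. Ptges, whose product works with cyclooxygenase-2 in stimulated macrophages, measured 2.87, 4.27, 3.41, 3.92 and 2.95 CPM in control. With poly(I:C) it measured 21.8, 18.3, 19.1, 17.9 and 19.0 CPM. With CL075 it measured 253.8, 279.9, 370.3, 317.2 and 241.3 CPM. The groups lay far apart, and the poly(I:C) libraries were the tightest. Ptges rose with poly(I:C) by 2.47 in log2 units (SE 0.14, edgeR adjusted p = 3.29e-12) and 974 tested genes rose more. It was 6.39 with CL075 (SE 0.14, edgeR adjusted p = 1.87e-17) and 30 tested genes rose more. The direct comparison gave −3.93 (SE 0.12, edgeR adjusted p = 6.39e-16), or 15.2-fold less with poly(I:C), and only 39 genes lay further down. Ptges and Ptgs2 therefore differed in how the 2 ligands compared, by factors of 15.2 and 2.26.

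Ptges2 encodes microsomal prostaglandin E synthase-2, which most cells express at a steady level. It measured 4.93, 3.95, 4.77, 3.52 and 4.92 CPM in control. The poly(I:C) libraries gave 3.09, 3.01, 2.30, 3.77 and 3.20 CPM, and the CL075 libraries gave 5.96, 5.62, 4.95, 6.68 and 6.31 CPM. Poly(I:C) and control overlapped, as replicate 4 was the highest of the one and the lowest of the other, while all CL075 libraries lay above both. Against control, poly(I:C) gave a log2 fold change of −0.52 (edgeR adjusted p = 0.00136) and CL075 one of 0.42 (edgeR adjusted p = 0.00346), both below 1.5-fold and so not called. Poly(I:C) lay 0.93 below CL075 on the log2 scale, a called difference (−0.93, SE 0.13, edgeR adjusted p = 2.9e-06). The poly(I:C) value against control ran from −0.84 to −1.45 on the other 3 scales and was called lower there, as it was without replicate 4 of all groups (−0.68), of control (−0.59) or of poly(I:C) (−0.61).

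Ptges3 encodes p23, an Hsp90 cochaperone that also has prostaglandin E synthase activity in the cytosol. Its control levels were 62.7, 69.1, 65.9, 70.1 and 63.9 CPM. With poly(I:C) they were 78.5, 88.2, 90.0, 70.7 and 80.4 CPM, and with CL075 137.1, 150.8, 144.5, 142.1 and 138.3 CPM. Poly(I:C) replicate 4 lay only just above the highest control library, and all CL075 libraries lay well above. The rise with CL075 was 1.10 on the log2 scale (SE 0.058, edgeR adjusted p = 4.83e-12). The poly(I:C) value of 0.30 (edgeR adjusted p = 0.00012) was below 1.5-fold and was −0.026, −0.26 and −0.64 when scaled by upper quartile, Hprt or library totals. The annotation names 1 pseudogene of Ptges3, and reads with up to 5 hits were kept, so some of its counts are uncertain.

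Per length, Ptges3 accounted for 94.7% ± 0.244 of the summed TPM of the 3 prostaglandin E synthases in control and 87.3% ± 1.42 with poly(I:C), but for 47.0% ± 3.90 with CL075 (SD, n = 5). The share of Ptges was 2.72% ± 0.355, 11.4% ± 1.21 and 52.2% ± 4.00 in the same order. Ptges and Ptges3 thus reached similar TPM with CL075, and their ranges overlapped (174.4 to 255.3 and 170.7 to 189.8 TPM).

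Hpgds and Tbxas1 draw on the same substrate, PGH2, for other products. Hpgds, the haematopoietic prostaglandin D synthase, measured 84.0, 73.3, 91.2, 86.5 and 95.3 CPM in control. It measured 81.8, 83.4, 118.1, 86.3 and 99.8 CPM with poly(I:C), and 130.1, 128.0, 146.5, 151.7 and 149.0 CPM with CL075. Control and poly(I:C) overlapped in part, with poly(I:C) replicates 3 and 5 above every control library and control replicate 2 below every poly(I:C) library, and the CL075 libraries lay above both. The rise with CL075 was 0.71 on the log2 scale (SE 0.092, edgeR adjusted p = 1.21e-06), but it was 0.56, 0.43 and 0.36 on the upper-quartile, Hprt and library-total scales, below 1.5-fold. The poly(I:C) value was 0.13 (edgeR adjusted p = 0.214) with a 95% interval of −0.057 to 0.31, and it was negative on the same 3 scales. Poly(I:C) against CL075 gave −0.59 (edgeR adjusted p = 1.26e-05), barely past 1.5-fold, and the call was lost in 9 of 20 fits that left out a library or a replicate number.

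Tbxas1, thromboxane A synthase, measured 80.4, 76.6, 79.8, 79.8 and 79.5 CPM in control, the tightest control set among the members. It measured 45.9, 52.2, 55.7, 52.1 and 47.6 CPM with poly(I:C), and 31.2, 34.8, 42.3, 38.8 and 34.2 CPM with CL075. All 3 groups were separate, in falling order. Poly(I:C) gave a log2 fold change of −0.64 (SE 0.068, edgeR adjusted p = 5.62e-08) and CL075 one of −1.13 (SE 0.069, edgeR adjusted p = 3.86e-11). DESeq2 gave −0.58 for poly(I:C), just below 1.5-fold. The difference between the ligands, 0.48 (edgeR adjusted p = 4.36e-06), was not called, and by library totals it was −0.10. The ratio of Hpgds to Tbxas1 TPM had medians of 0.982 in control, 1.61 with poly(I:C) and 3.54 with CL075, and the groups did not overlap. Its 3 differences each gave p = 0.00794 (two-sided exact permutation test; adjusted 0.00866).

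Hpgd encodes 15-hydroxyprostaglandin dehydrogenase, which starts the breakdown of prostaglandin E2. It measured 61.4, 58.4, 83.0, 56.9 and 67.2 CPM in control. The poly(I:C) libraries held 4.81, 7.07, 7.46, 5.65 and 6.23 CPM. The CL075 libraries held 1.15, 1.06, 1.32, 1.43 and 1.06 CPM, from 27 to 40 counts each. The 3 groups were separated by wide gaps in falling order. In poly(I:C) libraries it was 10.5-fold lower (log2 fold change −3.39, SE 0.12, edgeR adjusted p = 2.96e-15), and 144 tested genes fell further. In CL075 libraries it was 54.4-fold lower (−5.77, SE 0.14, edgeR adjusted p = 1.2e-16), and 6 of 11804 genes fell further. The difference between the ligands was 2.37 (SE 0.17, edgeR adjusted p = 2.98e-10).

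In control BMDMs Hpgd had the highest mean TPM of the members (125.1 ± 21.0, SD, n = 5), and with CL075 the lowest (1.81 ± 0.198). Ptges moved the other way, from 3.07 ± 0.497 TPM in control to 202.6 ± 32.3 with CL075. The ratio of Ptges to Hpgd within a library, set here to compare a gene of prostaglandin E2 synthesis with one of its breakdown, ran from 0.0190 to 0.0338 in control. It ran from 1.18 to 2.09 with poly(I:C) and from 102.0 to 129.4 with CL075. The mean log2 ratio differed from control by 5.87 with poly(I:C) and by 12.15 with CL075, and between the ligands by −6.28 (each p = 0.00794, two-sided exact permutation test; adjusted 0.00866). These are transcript ratios, and neither enzyme activity nor prostaglandin was measured.

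**Figure D2:**
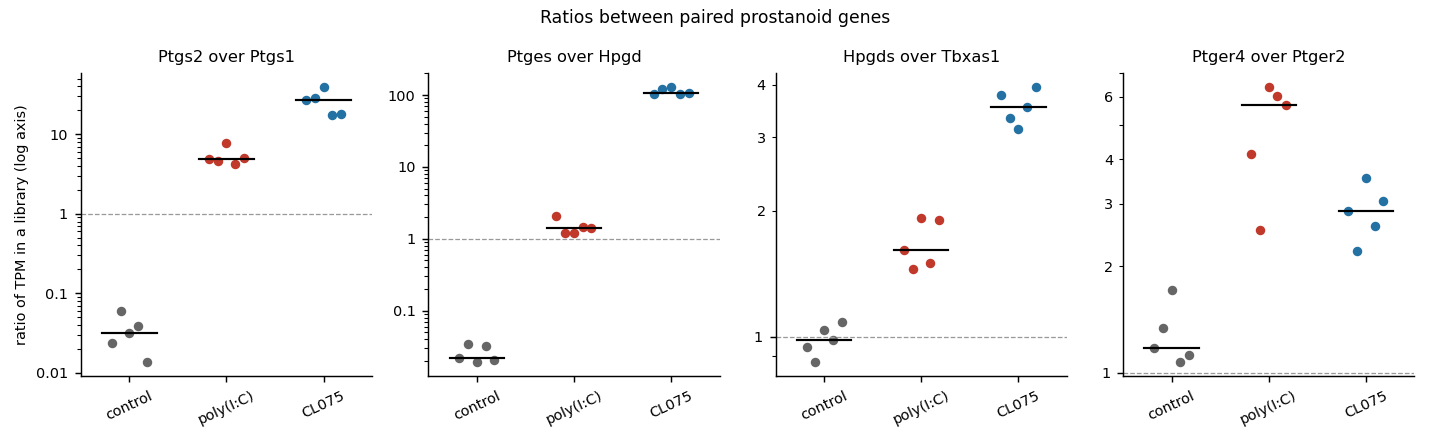
Ratio of TPM of 2 genes within each library (log axes) for Ptgs2 over Ptgs1, Ptges over Hpgd, Hpgds over Tbxas1 and Ptger4 over Ptger2; points are libraries, bars are medians of 5 and the dashed line marks equal levels. The control, poly(I:C) and CL075 libraries do not overlap in the first 3 ratios, whereas poly(I:C) and CL075 overlap for Ptger4 over Ptger2.

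The members' order by TPM also changed. In control it ran Hpgd, Ptges3, Tbxas1, Hpgds, Ptgs1, Ptger4, Ptger2, Ptges, Ptges2 and Ptgs2, from 125.1 to 0.954 TPM, and the neighbours Hpgd and Ptges3, Tbxas1 and Hpgds, Ptger4 and Ptger2, and Ptges and Ptges2 overlapped between libraries. With poly(I:C) it ran Ptges3, Hpgds, Tbxas1, Ptgs2, Ptges, Hpgd, Ptger4, Ptgs1, Ptger2 and Ptges2, from 72.6 to 1.10 TPM, and only Hpgd with Ptger4 and Ptger2 with Ptges2 overlapped among neighbours. With CL075 it ran Ptges, Ptges3, Hpgds, Ptgs2, Tbxas1, Ptger4, Ptger2, Ptges2, Ptgs1 and Hpgd, from 202.6 to 1.81 TPM. There the neighbours Ptges and Ptges3, Tbxas1 and Ptger4, Ptges2 and Ptgs1, and Ptgs1 and Hpgd overlapped.

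Ptger2 and Ptger4 encode EP2 and EP4, the prostaglandin E2 receptors that couple to Gs and raise cyclic AMP. Ptger2 measured 10.4, 8.73, 7.50, 9.21 and 9.94 CPM in control. It measured 2.89, 3.29, 2.25, 1.93 and 2.38 CPM with poly(I:C), and 15.1, 16.7, 12.4, 14.9 and 13.9 CPM with CL075. The groups did not overlap, with control in the middle. Poly(I:C) gave a log2 fold change of −1.85 (SE 0.13, edgeR adjusted p = 1.55e-10), and the direct comparison gave −2.52 (SE 0.13, edgeR adjusted p = 1.45e-12). The rise with CL075 was 0.67 (SE 0.10, edgeR adjusted p = 8.5e-06), and it fell below 1.5-fold, at 0.51, 0.38 and 0.32, on the upper-quartile, Hprt and library-total scales.

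Ptger4 measured 11.1, 10.5, 11.6, 8.89 and 10.1 CPM in control and 10.8, 7.50, 13.0, 10.6 and 12.2 CPM with poly(I:C). With CL075 it measured 38.9, 33.4, 39.9, 34.9 and 38.2 CPM. Every CL075 library was far above the other 10, which overlapped. CL075 raised it by 1.83 on the log2 scale (SE 0.10, edgeR adjusted p = 8.26e-12), and poly(I:C) against CL075 gave −1.77 (SE 0.10, edgeR adjusted p = 1.38e-11). Poly(I:C) against control gave 0.057 (edgeR adjusted p = 0.633; 95% interval −0.16 to 0.27), and −0.27, −0.49 and −0.88 on the upper-quartile, Hprt and library-total scales, the last of them called lower. Of the exon bases of Ptger4, 16.5% lie opposite Ttc33 or another annotated gene, so part of its counts could belong to these. The share opposite annotated genes is 4.74% for Ptger2 and 1.58% for Tbxas1.

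The TPM ratio of Ptger4 to Ptger2 was 1.07 to 1.71 in control, 2.53 to 6.40 with poly(I:C) and 2.21 to 3.56 with CL075. Both ligands differed from control (differences of 1.90 and 1.16 in mean log2 ratio, each p = 0.00794, two-sided exact permutation test; adjusted 0.00866), although with poly(I:C) the numerator was not called changed and with CL075 both genes rose. The ligands themselves overlapped and differed by 0.74 (two-sided exact permutation p = 0.0476; adjusted 0.0476).

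**Figure D3:**
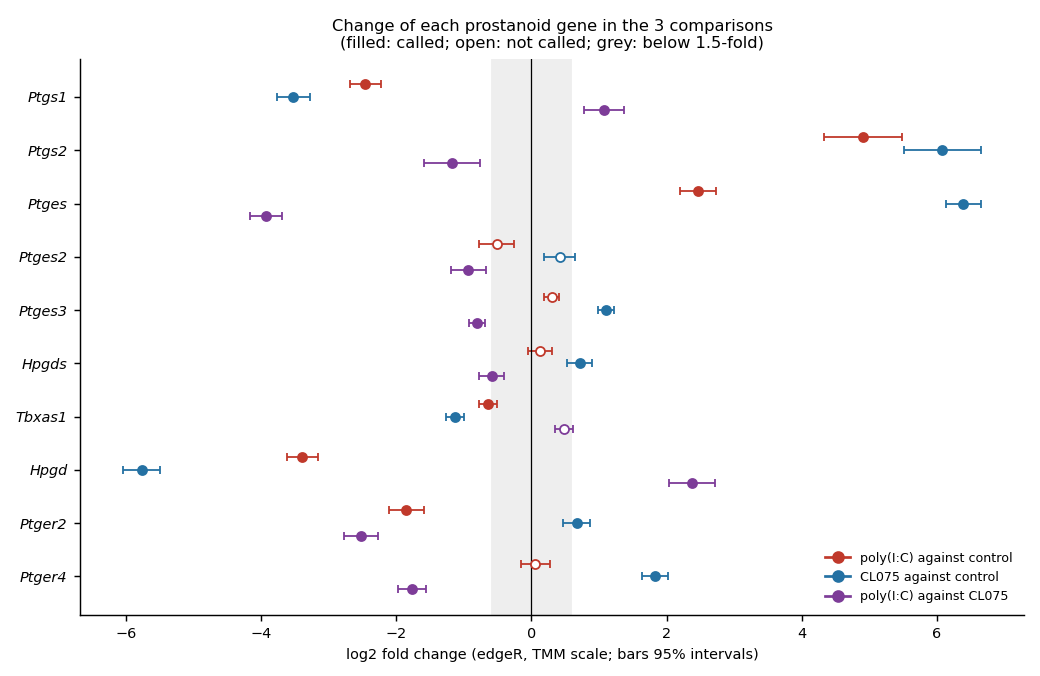
Log2 fold change (horizontal axis) of each gene in poly(I:C) against control, CL075 against control and poly(I:C) against CL075, from edgeR on the TMM scale; bars are 95% intervals, filled points were called and open points were not. Ptgs2 reaches 4.91 and 6.08 against control, Ptges 2.47 and 6.39 and Hpgd −3.39 and −5.77; the small poly(I:C) values of Ptges3, Hpgds and Ptger4 turn negative on other scales.

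Scaling moved the 2 comparisons with control by different amounts. Over all tested genes the median log2 fold change in poly(I:C) against control was −0.083 with TMM, −0.41 with upper-quartile factors, −0.63 with Hprt and −1.02 with library totals. In CL075 against control it was −0.022, −0.18, −0.31 and −0.37. The rises of Ptgs2 and Ptges and the falls of Ptgs1, Hpgd and Tbxas1 were called on all 4 scales with both ligands, as were the fall of Ptger2 with poly(I:C) and the rises of Ptger4 and Ptges3 with CL075. Of all calls, 45.5% (poly(I:C)) and 45.1% (CL075) were higher with TMM, against 16.8% and 22.4% with library totals.

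**Figure D4:**
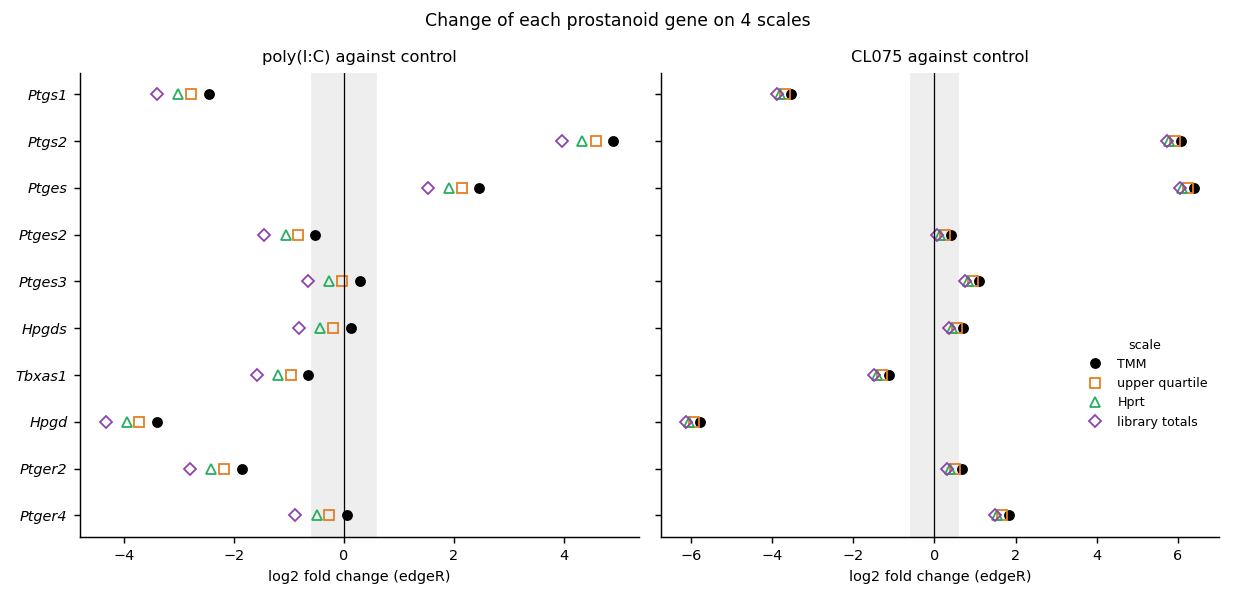
Log2 fold change (edgeR, horizontal axes) of each gene against control with poly(I:C), left, and CL075, right, on 4 scales: TMM, upper quartile, Hprt and library totals; the grey band marks changes below 1.5-fold. Ptges3, Hpgds and Ptger4 cross 0 with poly(I:C), from 0.30, 0.13 and 0.057 with TMM to −0.64, −0.81 and −0.88 with library totals, and no gene crosses 0 with CL075.

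Upstream of the cyclooxygenases, 21 of 26 listed genes of arachidonate release and recycling were tested. With poly(I:C) 9 were called higher and 7 lower (25.4% and 30.5% of all tested genes were), and with CL075 5 and 7 (17.6% and 21.5%). By library totals the 9 became 5, where that scale called 1546 of the 11804 tested genes higher, against 3002 with TMM. Medians were 0.57 and 0.098 on the log2 scale, against −0.083 and −0.022 over all tested genes. Pla2g4a, the cytosolic phospholipase that frees arachidonic acid, rose with both (1.99, SE 0.15, and 1.25, SE 0.14; edgeR adjusted p = 2.68e-10 and 2.84e-07). Its paralogue Pla2g4c rose with poly(I:C) by 5.59 (SE 0.13, edgeR adjusted p = 1.72e-17), while its CL075 value was 0.32 (edgeR adjusted p = 0.206), and poly(I:C) against CL075 gave 5.27 (edgeR adjusted p = 7.4e-17). Pla2g4a and Pla2g4c were named after their values had been seen.

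Faah, which hydrolyses fatty acid amides such as anandamide, had the largest called change of that list with poly(I:C). It held 0 to 4 counts in control libraries and 201 to 367 in poly(I:C) libraries, and its fitted log2 fold change was 7.77 (edgeR adjusted p = 3.27e-13). No CL075 library held a count of Faah, which allows a level of up to 0.0205 CPM over that group. The list's CL075 median stayed at 0.098 with Faah set to that limit. Acsl1, an acyl-CoA synthetase, rose with both ligands (3.25 and 2.38; edgeR adjusted p = 5.21e-19 and 7.27e-17). Pla2g7, the platelet-activating factor acetylhydrolase, was the most abundant gene of the list and rose by 1.32 with each (edgeR adjusted p = 4e-08 and 6.53e-08), although by library totals its poly(I:C) value was 0.38 and not called. Acsl5 rose with CL075 (1.83, edgeR adjusted p = 4.98e-15), and its poly(I:C) value of 0.57 was below 1.5-fold and turned to −0.37 by library totals. Lpcat2, an acyltransferase of phospholipid remodelling, rose with poly(I:C) (0.74, edgeR adjusted p = 1.41e-09) and had a CL075 value of 0.56, but its poly(I:C) value was 0.42, 0.19 and −0.20 on the upper-quartile, Hprt and library-total scales and no longer called.

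Of 18 listed genes for other synthases, reductases and transport, 15 were tested, with 2 higher and 5 lower for poly(I:C) and 4 higher and 3 lower for CL075, beside 25.4%, 30.5%, 17.6% and 21.5% of all tested genes. Medians were −0.21 and 0.45, against −0.083 and −0.022 over all tested genes. Slco3a1, an organic anion transporter that can carry prostaglandins, rose most with both ligands (5.46, SE 0.097, and 3.95, SE 0.092; edgeR adjusted p = 5.32e-19 and 7.16e-17). Abcc1, an efflux pump for conjugated lipids, fell with poly(I:C) and rose with CL075 (−0.79 and 1.59; edgeR adjusted p = 2.75e-07 and 2.53e-11). Akr1b3, an aldo-keto reductase with prostaglandin F synthase activity, rose with poly(I:C) (0.90, edgeR adjusted p = 2.06e-12) and had a CL075 value of −0.16, but its poly(I:C) value was 0.57, 0.35 and −0.039 on those 3 scales and no longer called. By library totals, 12 genes of this list were called lower with poly(I:C) and 1 higher, where 7664 and 1546 of the 11804 tested genes were. The synthases of prostacyclin (Ptgis) and, outside blood cells, of prostaglandin D2 (Ptgds) were not tested, with at most 3 counts in any library.

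Of the 8 other receptors listed, only Ptgir and Pparg passed the filter. Ptgir, the prostacyclin receptor, measured 4.77 ± 0.856 CPM in control, 9.06 ± 1.58 in poly(I:C) libraries, and 13.9 ± 2.25 in CL075 libraries (SD, n = 5). It rose by 0.93 and 1.54 on the log2 scale (edgeR adjusted p = 8.52e-06 and 7.15e-09), but its poly(I:C) value was 0.37 with Hprt and −0.0084 with library totals and no longer called. Pparg, a nuclear receptor for some prostaglandin derivatives, gave −0.53 and −0.13 and was not called, although the poly(I:C) value was called lower on the other 3 scales. Ptger1 reached at most 10 counts in a library and Ptger3 at most 4, Ptgdr2 at most 2 and Tbxa2r at most 1. Ptgdr and Ptgfr had no count in any library, which allows up to 0.0160, 0.0298 and 0.0205 CPM over the control, poly(I:C) and CL075 groups.

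Behind EP2 and EP4, 25 of 28 listed genes of the cyclic AMP pathway were tested. With poly(I:C) 4 were called higher and 15 lower (25.4% and 30.5% of all tested genes were), and with CL075 3 and 11 (17.6% and 21.5%). Medians were −0.63 and −0.43, against −0.083 and −0.022 over all tested genes. By library totals the 4 became 2, where that scale called 1546 of the 11804 tested genes higher, against 3002 with TMM. Adenylyl cyclase Adcy7, the most abundant cyclase of the list, fell with both (−1.27 and −1.12; edgeR adjusted p = 6.79e-13 and 1e-11). Arrb1, the beta-arrestin that quenches receptor signalling, fell by 3.71 with poly(I:C) (SE 0.097, edgeR adjusted p = 6.46e-17) and gave −0.41 with CL075, below 1.5-fold but called lower on the Hprt and library-total scales (−0.69 and −0.75). Pde4b, a phosphodiesterase that degrades cyclic AMP, rose with both (1.45 and 2.45; edgeR adjusted p = 3.64e-12 and 6.92e-15), though by library totals its poly(I:C) value was 0.51 and not called. Gnas, the stimulatory G protein subunit, and Prkar1a, a regulatory subunit of protein kinase A, were named for their high CPM and were not called with either ligand. Their log2 fold changes were 0.47 and 0.29 for Gnas and 0.091 and −0.020 for Prkar1a, and the sign of each turned under another scale or tool. By TPM, Gnas averaged 118.3, 90.5 and 113.8 in control, poly(I:C) and CL075. Prkar1a averaged 280.3, 165.5 and 217.9 TPM, and Arrb2 averaged 327.8, 81.1 and 350.6 TPM, in the same order.

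**Figure D5:**
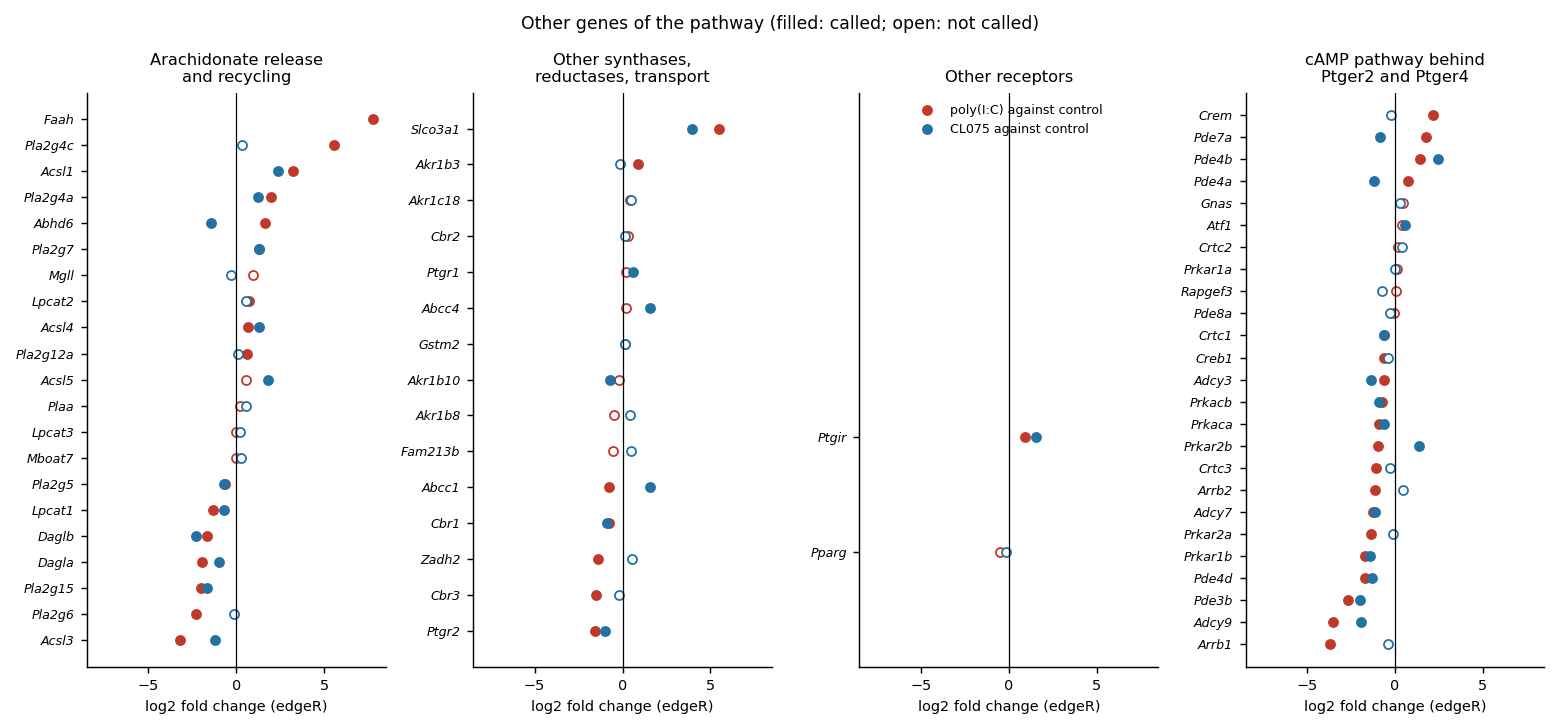
Log2 fold change against control (edgeR, TMM scale, horizontal axes) of the tested genes of 4 lists around the 10 genes, with poly(I:C) in red and CL075 in blue; filled points were called. Slco3a1 reaches 5.46 and 3.95, Pla2g4c 5.59 with poly(I:C) and Arrb1 −3.71 with poly(I:C); Faah has no CL075 point because no CL075 library held a count of it, and several small poly(I:C) values change sign on other scales.

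Likeness to other genes was measured as Pearson's r of log2 CPM over the 15 libraries, across genes with a mean of at least 10 CPM, and is a description of 3 groups of libraries. Ptgs2 was most like Ifrd1 (r = 0.995) and Ap2b1 (0.994), and among the other members like Ptges (0.884). Ptges was most like Stard5 (0.997) and Psma6 (0.996), and among members like Ptges3 (0.977). Hpgd was most like Slc46a3 (0.996) and Txnip (0.995), and among members like Ptgs1 (0.985). Ptger2 was most like Kif2a (0.988) and N6amt1 (0.985), and Ptger4 like Mrpl45 (0.987) and Cep83 (0.983).

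Some summed markers of other cell types differed between groups, in several lists mostly through a single gene. The 7 dendritic cell markers summed to 0.999 to 1.57 CPM in control, 13.1 to 17.0 with poly(I:C) and 0.942 to 1.39 with CL075, mostly Clec9a, which was called higher with poly(I:C) (log2 fold change 6.16, edgeR adjusted p = 9.96e-17), as was Xcr1 at a mean of 1.36 CPM (5.72, edgeR adjusted p = 6.66e-11), while Flt3 and Zbtb46 averaged below 0.3 CPM in every group. The 11 megakaryocyte and platelet markers summed to 32.3 to 54.5, 28.1 to 50.7 and 55.2 to 93.0 CPM, mostly Pf4. The 10 neutrophil markers summed to 9.70 to 35.6, 14.1 to 64.0 and 16.1 to 49.6 CPM, led by Ngp. The 5 B cell markers summed to 11.6 to 13.5, 3.45 to 4.52 and 2.83 to 3.85 CPM, mostly Cd79b, with Cd79a below 0.3 CPM. The 7 T and NK cell markers summed to 46.7 to 57.1, 61.5 to 75.1 and 37.4 to 47.8 CPM, nearly all Cd4, with Cd3e and Ncr1 below 0.03 CPM. The 9 fibroblast markers summed to 2.36 to 3.29, 1.86 to 3.01 and 4.52 to 5.89 CPM, and Pdgfrb among them was called higher with CL075 (1.88, edgeR adjusted p = 9.89e-09). Their part in the members' changes was not tested. In bulk RNA, fewer cells of a type and less RNA per cell cannot be told apart.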

How the data were processed

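BMDM libraries were made with the TruSeq Stranded mRNA kit and sequenced on a NextSeq500 as single reads of 75 to 76 cycles. Per the study's methods, the authors trimmed reads (Phred below 20, length below 25 bp) and mapped them in CLC Genomics Workbench to GRCm38.p6 with at most 5 hits per read. The deposited values used here are raw counts per gene and TPM, both made by the authors, who did not pool replicates, and no source used here gives the strand setting. Another 20 deposited columns, of RPKM, were not used, nor were the authors' fold changes and p-values. The design text speaks of triplicates, but 5 libraries a group are labelled.

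The counts of all 15 libraries were fitted together with edgeR 4.0.16 in R 4.3.3 (filterByExpr, TMM, quasi-likelihood F-test, Benjamini-Hochberg adjustment). The code was tested on simulated data in which few genes changed, in a single group, so that test does not bear on the choice of scale. Alternatives were other scales (upper quartile, Hprt, library totals), DESeq2 1.42.0, no filter, only the groups compared, glmTreat, no TPM floor, a replicate block and leaving out libraries. Leaving out 3 libraries with haemoglobin transcripts, and the tests of ratios, were added after seeing the data. From each list the 3 genes highest in CPM and the called gene with the largest change against control were named, with Pla2g4a and Pla2g4c added after their values had been seen. The members and lists were chosen with earlier results of these data known. Opposite-strand overlaps come from GENCODE vM21, whose spans for the 10 genes equal those of the files, and all 10 promoters matched RefSeq's table by symbol. Of the macrophage markers, 1 was not analysed here. Some single marker genes are not reported here.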

Additional observations from a re-analysis of the deposited data

Results flagged for a closer look

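Among the 30 sets of 5 libraries (10 genes in 3 groups), 2 held a library far from the rest, where chance gives about 1 in 20. Ptgs1 measured 32.24 CPM in control replicate 5, against 24.18 to 25.98 CPM in the other control libraries, and the gap was 0.776 of the range. Leaving out that library or any other kept its log2 fold change between −2.56 and −2.37 for poly(I:C) and between −3.64 and −3.42 for CL075. Tbxas1 measured 76.62 CPM in control replicate 2, against 79.5 to 80.37 CPM in the others, with a gap of 0.769 of the range. Its control libraries span so little that this gap is small beside the difference from either treated group.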

How the results depend on the processing

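Of the 900 comparisons of a member's log2 fold change with an alternative (10 genes, 3 comparisons, 30 alternatives), 859 kept their direction and their call, 22 lost the call, 6 gained one and 13 changed sign. The sign changes of members concern values not called on the TMM scale. In poly(I:C) against control, upper-quartile factors, Hprt and library totals gave −0.1994, −0.4313 and −0.8141 for Hpgds, −0.2667, −0.4926 and −0.8791 for Ptger4 and −0.0263, −0.2604 and −0.6413 for Ptges3. Ptger4 also gave −0.0072 without replicate 5, −0.0223 to 0.1624 without single libraries or replicates, the lowest without poly(I:C) replicate 3, and −0.0108 in the 12 libraries low in erythroid markers. Tbxas1 in poly(I:C) against CL075 gave −0.1035 by library totals. Of the pathway genes, library totals turned the poly(I:C) values of Acsl5 (−0.3679), Akr1b3 (−0.039), Gnas (−0.4713), Lpcat2 (−0.1987), Prkar1a (−0.846) and Ptgir (−0.0084) and the CL075 values of Gnas (−0.0611) and Pla2g4c (−0.0294). Hprt turned poly(I:C) values of Gnas (−0.0826) and Prkar1a (−0.4621), upper-quartile factors that of Prkar1a (−0.2317), and its CL075 value was 0.0211 with DESeq2, 0.0028 without replicate 4, 0.0034 without control replicate 2 and −0.0417 to 0.0034 over all fits that left out libraries.

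By library totals, members called lower in poly(I:C) against control numbered 8, and those higher in poly(I:C) against CL075 1. Of the 11804 tested genes, that scale called 1546 higher and 7664 lower in poly(I:C) against control. It called 1629 higher and 5631 lower in poly(I:C) against CL075. In poly(I:C) against control the same scale gave 5 genes of arachidonate release, 2 of the cyclic AMP pathway, 1 of the other synthases and 0 receptors called higher, and 12 synthases and 1 receptor lower. In poly(I:C) against CL075 it gave 3 and 10 (arachidonate release, higher and lower), 14 (cyclic AMP, lower), 1 (synthases, higher) and 2 (receptors, lower). With Hprt, poly(I:C) against control gave 1 synthase higher, 8 lower, 0 receptors higher and 1 lower, and poly(I:C) against CL075 2 receptors lower. Over all tested genes Hprt gave 2026 higher and 5920 lower in poly(I:C) against control, and 3877 lower in poly(I:C) against CL075. Upper-quartile factors gave 1 synthase higher and 1 receptor lower in poly(I:C) against control, and glmTreat 0 receptors lower in poly(I:C) against CL075. Over all tested genes the former gave 2337 higher and 4890 lower, and the latter 2306 lower, in the same comparisons. The 12 libraries low in erythroid markers gave 1 receptor lower in poly(I:C) against control and 0 in poly(I:C) against CL075. Leaving out single libraries, receptors called lower ranged from 0 to 1 in both comparisons with poly(I:C), with 1 against control without control replicate 1 or poly(I:C) replicate 3, and 0 against CL075 without CL075 replicate 1 or 2 or poly(I:C) replicate 3 or 4. The cause was not tested.

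The calls of Hpgds and Ptger2 in CL075 against control and of Tbxas1 in poly(I:C) against control were also lost with glmTreat (adjusted p = 0.0811, 0.205 and 0.133), that of Hpgds in poly(I:C) against CL075 with DESeq2 (−0.5619) and without poly(I:C) replicate 1, 2 or 4 or CL075 replicate 3, 4 or 5 (−0.5484 to −0.702 over all such fits), and Ptges2 in poly(I:C) against control was called lower without replicate 4 (−0.6826). Over all tested genes, library totals gave 1546 higher and 7664 lower in poly(I:C) against control, 1208 and 4184 in CL075 against control, and 1629 and 5631 in poly(I:C) against CL075, where TMM gave 3002 and 3597, 2082 and 2534, and 2684 and 2803. Hprt gave 5920 and 3814 lower against control, with 25.5% and 25.6% of calls higher, and 1314 higher with CL075, and upper-quartile factors gave 32.3% and 33.5%.

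The replicate block changed no call of a member and gave 3011 higher and 3616 lower genes in poly(I:C) against control and 2093 and 2558 in CL075 against control, against 3002, 3597, 2082 and 2534 without it. Deviations of same-numbered libraries correlated with r from −0.0041 to 0.324, 14 of 15 pairs above 0.1, and 27 of 30 best matches had their own number. The library names carry the same numbers in every group, but do not say whether a number stands for a single animal or batch. Within same-numbered libraries, a pairing tried after seeing the data, each of the 12 ratio differences had 1 sign in 5 of 5 numbers, that of Ptger4 to Ptger2 between the ligands included (higher with poly(I:C)), and each gave p = 0.0625 in a two-sided exact sign-flip test, the smallest that 5 numbers allow. The depth limits Ptgs2 in control (30 to 88 counts) and Hpgd with CL075 (27 to 40 counts).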

Other observations

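The gene of the poly(I:C) receptor, Tlr3, measured 34.4 ± 5.08 CPM in control, 1004 ± 60.2 CPM in poly(I:C) and 34.0 ± 6.15 CPM in CL075 libraries (SD, n = 5, TMM scale). Tlr7, which encodes the receptor of CL075, measured 181.6 ± 16.9, 553.0 ± 23.9 and 179.4 ± 18.6 CPM in that order. Hprt, which set one of the scales, measured 88.0 ± 5.89, 129.1 ± 10.9 and 107.2 ± 4.95 CPM, so a scale that holds Hprt level lowers every treated value. By TPM, Tlr3 averaged 22.6, 365.6 and 17.5, and Tlr7 averaged 147.3, 248.7 and 114.5, in the same order. With CL075 both thus lay near control in TMM CPM but below it in TPM. Test results of Tlr3, Tlr7 and Hprt are not reported here, and their part in the members' changes was not tested.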
